A study of Mus musculus with 60 samples.

Results

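The 10 genes described here are Cps1, Otc, Ass1, Asl, Arg1, Nags, Hal, Gls2, Cyp2f2 and Sds, the core of the urea cycle together with periportal enzymes that feed it or mark the same hepatocytes. They were chosen by name, with no measured value in the rule, though earlier results of these data were known. They are 10 of the 38204 genes in the deposited table. The level of a gene is the sum of the RPKM values (reads per kilobase of transcript, relative to the number of mapped reads in the library) of all its annotated transcripts, scaled to a common centre across the 60 libraries. All values below are these scaled RPKM unless stated otherwise. The study exposed male C3H/HeNCrl mice, 8 to 10 weeks old, to 0.2 Gy of 56Fe ions, 16O ions or 28Si ions over the whole body, and kept non-irradiated mice of the same strain as controls. The left liver lobe was taken 1, 2, 4, 9 and 12 months later from 3 separate mice per group and time, which gives 45 irradiated and 15 control livers. Each time had its own 3 controls, and the comparisons of 56Fe, 16O and 28Si at that time share them. No allele, transgene or drug differed between groups. The strain is prone to liver tumours, the mice fed freely, and the hour at which livers were collected is not given in the sources used here.

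Ammonia released from amino acids is toxic, and the liver turns it into urea. The enzymes that do so are concentrated in hepatocytes near the portal vein, where blood enters the lobule, whereas hepatocytes around the central vein catch the ammonia that is left and fix it in glutamine. Cps1 joins ammonia and bicarbonate in mitochondria and is the entry step of the cycle, Nags makes the activator without which Cps1 does not work, Otc adds the product to ornithine, Ass1 and Asl build and split argininosuccinate in the cytosol, and Arg1 releases urea. Gls2, Hal and Sds set ammonia free from glutamine, histidine and serine, and Cyp2f2 is a cytochrome P450 used as a periportal marker in mouse liver. Genes of the cycle are known to respond to dietary protein, glucagon and glucocorticoids.

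Promoter sequence is shown for the 2 genes with a promoter in the reference table whose levels differed most in the tests below, Hal between the ions at 1 month and Cyp2f2 between times. The RefSeq table for GRCm38.p6 held a promoter for 5 of the 10 genes, namely Otc, Ass1, Nags, Hal and Cyp2f2. Hal lies on the plus strand, and the 250 bases before its RefSeq start are chr10:93488518-93488767. Cyp2f2 is also on the plus strand, and the 204 bases up to its earliest annotated start are chr7:27119705-27119908. Capitals mark letters that match one of 9 motifs searched on both strands, and the sequences run from 5′ to 3′.
Hal: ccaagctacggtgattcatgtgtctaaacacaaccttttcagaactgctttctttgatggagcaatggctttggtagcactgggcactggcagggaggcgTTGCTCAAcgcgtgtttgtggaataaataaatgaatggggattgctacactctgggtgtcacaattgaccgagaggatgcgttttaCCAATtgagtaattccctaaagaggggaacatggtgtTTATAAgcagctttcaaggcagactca
Cyp2f2: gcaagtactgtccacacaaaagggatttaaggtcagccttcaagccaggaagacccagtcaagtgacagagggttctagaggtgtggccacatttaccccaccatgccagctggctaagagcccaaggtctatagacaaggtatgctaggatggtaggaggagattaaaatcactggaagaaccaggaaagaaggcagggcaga
In the Hal window TTGCTCAA is a match to TTGCNNAA (a C/EBP site, 150 to 143 bases before the start), CCAAT is the CCAAT box, and TTATAA holds TATAA on both strands, 27 to 22 bases before the start. TATAA was present in 22.8% of 32851 promoter windows of the same length, CCAAT in 33.8% and TTGCNNAA in 9.56%. No motif matched in the Cyp2f2, Otc or Nags window, while Ass1 held CACGTG (an E-box), which 6.02% of windows held. It lay 36 to 31 bases before the RefSeq start of Ass1. The main Ass1 transcript starts 63 bases before that RefSeq start, so the match lies within the transcript. The other motifs searched on both strands were the cyclic AMP response element TGACGTCA, which 1.55% of windows held, the TGACG contained in it with 17.8%, the glucocorticoid receptor hexamer TGTTCT with 16.1%, the D-box TTATGTAA with 0.819% and the HNF4A site CAAAGTCCA with 0.384%. GC content was 45.6% in the Hal window, 51.6% in that of Cyp2f2 and 75.6% in that of Ass1, against a median of 52.4% over all windows.

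The libraries held between 11412665 and 40568208 mapped read pairs (median 18891345). The least abundant gene, Nags, still rested on at least 374 read pairs per library, and Cps1 on at least 40614. Annotated transcripts took a median share of 52.89%, 56.88%, 81.78%, 83.89% and 78.06% of the mapped pairs at 1, 2, 4, 9 and 12 months, in ion and control livers alike. Replicate 2 of 16O at 12 months stood apart from the other libraries, with a median Spearman correlation to them of 0.8908, where the median over libraries was 0.9705. Tissue identity was as labelled: Alb, the plasma albumin gene, had a median of 20860 RPKM as deposited, and 9 of 10 hepatocyte markers were measured and above 0 in every library. Markers of B and T cells were low, at 0.9496 RPKM as deposited or less, with Ms4a1 at 0 in 15 libraries and Cd79a at 0 in 5, while Ptprc, carried by all leukocytes, had a median of 2.801 and reached 24.28. In bulk liver fewer cells of a type and less RNA per cell cannot be told apart, and the place of the RNA in the lobule cannot be seen.

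**Figure D1:**
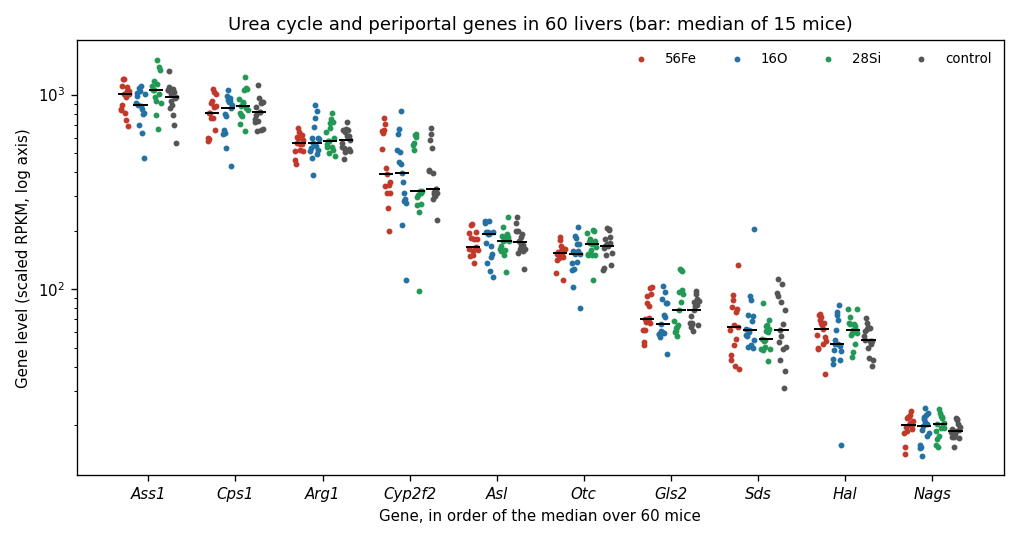
Level of each gene in each of 60 livers (scaled RPKM, log axis), in order of the median over all mice, with 15 mice per group and a bar at the group median. The urea cycle genes Ass1, Cps1 and Arg1 lie at the top, Nags lies lowest with a median of 19.59, and Cyp2f2 spreads from 98.2 to 819.6.

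All 10 genes were expressed in every liver and passed the filter on low values in every comparison, so no member was lost. Since RPKM is a level per length of transcript, the genes can be ordered. Ass1 had the highest median over 60 mice, 994.5, followed by Cps1 with 842.8, Arg1 with 575.6 and Cyp2f2 with 355.5. Asl and Otc came next with 176.4 and 157.9, then Gls2 with 71.5, Sds with 61.15, Hal with 58.82 and Nags with 19.59. Several steps of this order were firm in single livers: Cps1 was above Arg1 in 59 of 60 mice, Otc above Gls2 in 60 of 60 and Hal above Nags in 59 of 60. Others were not. Ass1 was above Cps1 in 46 of 60 mice, Asl above Otc in 37 of 60 (6 of 15 controls), and Sds above Hal in 31 of 60. The order of these neighbours thus varied from liver to liver, least so for Ass1 and Cps1.

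Nags was the steadiest member and Sds the least steady. The standard deviation between mice of the same group and time was 0.128 on the log2 scale for Nags, lower than in all but 6.9% of the 10006 genes with a mean of at least 1 RPKM. It was 0.439 for Sds, 0.36 for Cyp2f2 and 0.297 for Hal, higher than in 92.1%, 86% and 76.9% of those genes, where the median gene had 0.212. Cyp2f2 had the widest spread of group means, with a standard deviation of 0.557 over the 20 groups, higher than 90.1% of genes. The urea cycle genes proper, Cps1, Otc, Ass1, Asl and Arg1, had group means that spread by 0.171 to 0.216, below the median gene at 0.272.

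Cps1, the entry enzyme, had medians over 15 mice of 808.9 in 56Fe livers, 855.0 in 16O livers, 874.3 in 28Si livers and 810.7 in control livers. The lowest liver, at 431.7, was replicate 2 of 16O at 12 months, and the highest, at 1235, was replicate 1 of 28Si at 9 months. Nags, which makes the Cps1 activator, stayed between 13.95 and 24.5 in all 60 livers, with group medians of 20.07 in 56Fe, 19.78 in 16O, 20.29 in 28Si and 18.79 in control livers. Otc, the mitochondrial transcarbamylase, ran between 79.72 and 208.4, with group medians of 153.9 in 56Fe, 151.6 in 16O, 171.4 in 28Si and 166.4 in control livers. For these mitochondrial steps the 4 groups overlapped almost completely when the times were pooled.

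Ass1, the cytosolic step that joins citrulline and aspartate, ran between 474.1 and 1507, with group medians of 1004 in 56Fe, 880.0 in 16O, 1060 in 28Si and 969.9 in control livers. Asl, which splits argininosuccinate to arginine, ran between 115.1 and 235.4 with group medians of 164.4, 191.9 and 177.3 in 56Fe, 16O and 28Si livers, against 174.1 in control livers. Arg1, the final step, ran between 387.6 and 885.3 with group medians of 567.2, 562.0 and 576.2 in 56Fe, 16O and 28Si livers, against 583.2 in control livers. Here too the ranges of the ions and of the controls lay over each other.

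Gls2, liver glutaminase, ran between 46.71 and 126.5, and its 2 highest livers were 28Si replicates at 9 months with 126.5 and 126.2. Hal, histidase, ran between 15.77 and 82.76. Its lowest value was again replicate 2 of 16O at 12 months, and the next lowest liver of all, replicate 1 of 56Fe at 12 months, had 36.64. Sds, serine dehydratase, ran between 31.1 and 204.6, and the same 16O liver held its highest value. That liver was thus the lowest of 60 for Cps1, Otc, Ass1, Asl, Hal and Gls2 and the highest for Sds.

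Markers of macrophages stood out in 4 late livers, this one among them. The summed level of 10 Kupffer cell markers was 626.4 in replicate 1 of 56Fe at 12 months, 524.6 in replicate 2 of 16O at 12 months and 303.6 in replicate 2 of 28Si at 9 months, against 390.4 in replicate 2 of control at 12 months, and no other liver exceeded 222.9. Ptprc was likewise highest in these livers, with 20.01, 17.3 and 8.029 in the 56Fe, 16O and 28Si liver, against 13.85 in the control liver. Each was the lowest of its group and time for Cps1 (658.8, 431.7 and 647.7 in the 56Fe, 16O and 28Si liver, against 663.1 in the control liver) and for Cyp2f2 (199.2, 111.3 and 98.2, against 225.8). Those of 12 months were also lowest of their group for Hal and highest for Sds. The part of macrophages in these levels was not tested.

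The question of the design was whether each ion changed liver expression at each time. Over the 15 ion-against-control comparisons and 10 genes there were 150 values, of which 83 were higher and 67 lower than control, and 26 had an unadjusted p under 0.05. Only 3 passed at an adjusted p of 0.05 or less (limma, Benjamini-Hochberg adjustment over all genes tested), and all 3 were falls of Sds at 1 month. The log2 fold changes ran from −0.993 for Sds after 56Fe at 1 month to 0.753 for Sds after 56Fe at 2 months. Standard errors of the members ran from 0.0769 to 0.5846, so changes of the size seen for most members were not detectable with 3 mice a group, and a p that misses the threshold does not show that levels were equal. Each p-value rests on the spread among 3 mice per group, each sequenced as 1 library.

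**Figure D2:**
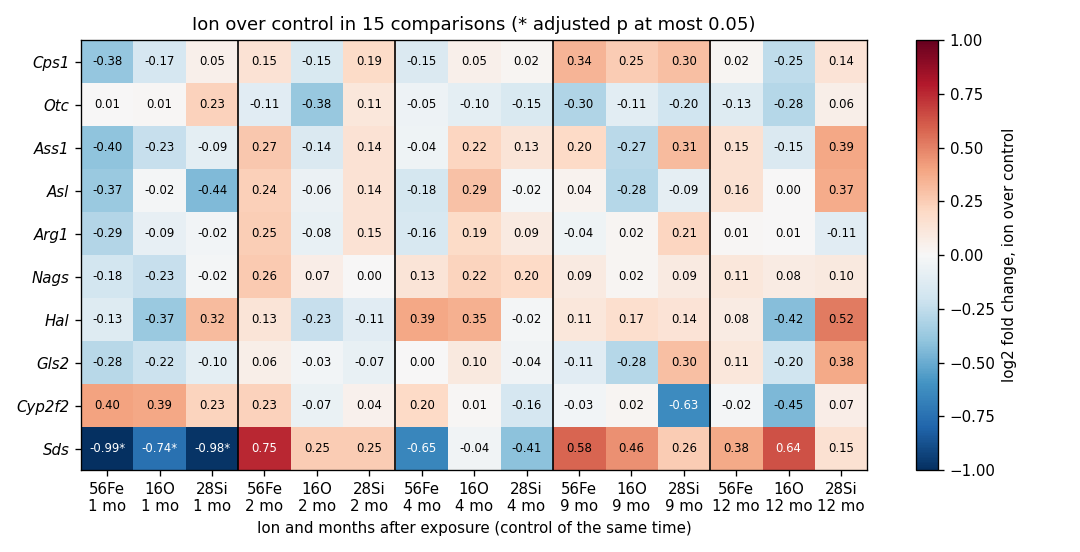
Log2 fold change of each gene (rows) for each ion over the control of the same time (columns, 3 against 3 mice), with blue lower and red higher than control. Stars mark the 3 values that passed at adjusted p 0.05, all Sds at 1 month (−0.99 for 56Fe, −0.74 for 16O, −0.98 for 28Si).

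At 1 month Sds, which turns serine into pyruvate and ammonia, fell after every ion. It had 61.49, 45.67 and 43.38 in 56Fe livers, against 95.39, 92.12 and 113.5 in control livers. In 16O livers it had 58.09, 62.67 and 57.48, and in 28Si livers 49.18, 55.63 and 48.44, against the same controls. All 9 irradiated livers lay below all 3 controls. The log2 fold change was −0.99 (SE 0.142, limma adjusted p = 0.00917) for 56Fe, −0.74 (SE 0.121, adjusted p = 0.0176) for 16O and −0.98 (SE 0.125, adjusted p = 0.0145) for 28Si. Sds was 1 member of 10 to pass in each comparison, where 1.18% of all genes tested passed for 56Fe, 1.6% for 16O and 0.244% for 28Si. The 3 comparisons rest on the same 3 control livers, so their like direction is not independent. Sds also differed over time among controls, which had 95.39, 92.12 and 113.5 at 1 month, 53.6, 43.12 and 61.62 at 2 months, and 85.83, 57.26 and 107 at 4 months. The 9 irradiated values at 1 month lay within the range of the controls of the later times, 31.1 to 107.

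The fall of Sds was seen in its main protein-coding transcript, which had 49.92, 42.87 and 41.06 in 56Fe livers, 51.12, 57.02 and 48.27 in 16O livers and 47.02, 52.6 and 46.04 in 28Si livers, against 84.73, 83.39 and 107.5 in control livers. Size and direction held when single mice were left out, with log2 fold changes of −1.139 to −0.9 for 56Fe, −0.802 to −0.657 for 16O and −1.053 to −0.897 for 28Si, but the calls did not all hold. The call for 56Fe was lost without 56Fe replicate 2 (adjusted p = 0.0732) or 3 (0.0531). The call for 16O was lost without any of its own 3 replicates (0.0735, 0.0543 and 0.0544), and that for 28Si without 28Si replicate 3 (0.0909), control replicate 1 (0.0642) or control replicate 2 (0.0675). With the spread estimated over all 60 libraries, the log2 fold changes were −1.01, −0.75 and −0.97 and none of the 3 passed (adjusted p = 0.204 for 56Fe, 0.378 for 16O and 0.160 for 28Si), while all passed with the 12 libraries of 1 month (0.00202, 0.00824 and 0.00331). On RPKM as deposited, without the common scale, the log2 fold changes were −1.02, −0.78 and −0.93, and only that of 56Fe passed (0.0267, against 0.0941 for 16O and 0.235 for 28Si).

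**Figure D3:**
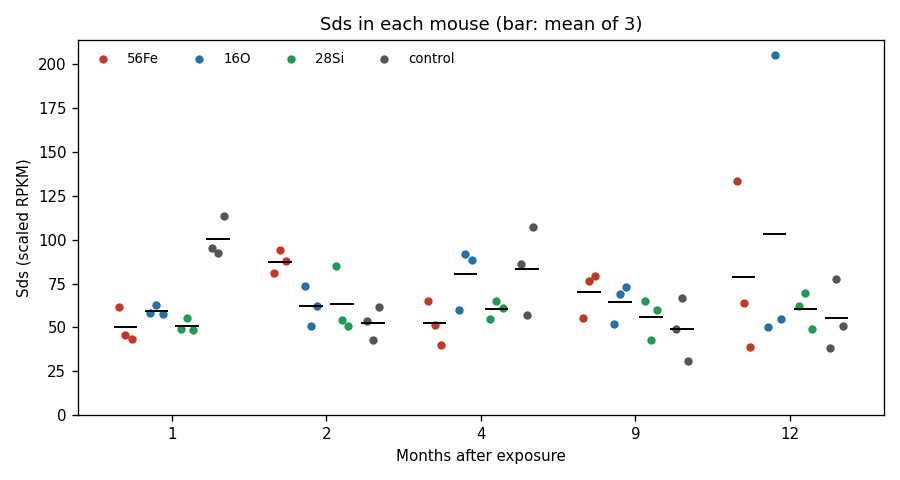
Sds in each mouse (scaled RPKM) at 5 times, with 3 mice per group and a bar at their mean. At 1 month the 9 irradiated livers lie between 43.38 and 62.67 and the 3 controls between 92.12 and 113.5, and at 12 months 1 liver of 16O reaches 204.6.

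The other 9 genes at 1 month had values on both sides of control, with none past the threshold. After 56Fe, Cps1 had 599.1, 580.3 and 589.7 against 726.8, 748.2 and 865.1 in control livers, a log2 fold change of −0.38 (adjusted p = 0.242). Ass1 had 841.2, 835.2 and 881.0 in 56Fe livers, against 1060, 1057 and 1319 in control livers (−0.40, adjusted p = 0.271). Arg1 had 515.3, 459.7 and 439.5 in 56Fe livers, against 561.5, 537.3 and 656.3 in control livers (−0.29, adjusted p = 0.394). For these genes every 56Fe liver was below every control, but the differences did not pass after adjustment over 11123 genes. The share of all genes that separated in this way was not counted, so the separation is not read as particular to the members. Gls2 was also lower in each of the 3 56Fe livers, and in each of the 3 16O livers, than in any control (log2 fold change −0.28 and −0.22, not called). Asl was lower than in any control in each of the 3 56Fe livers and each of the 3 28Si livers (−0.37 and −0.44, not called). Cyp2f2 went the other way, with 527.2, 648.4 and 634.8 in 56Fe livers and 520.2, 625.4 and 663.3 in 16O livers, against 404.7, 412.1 and 585.4 in control livers (0.40 and 0.39, adjusted p = 0.354 and 0.373), and without control replicate 3 the 56Fe difference passed (0.56, adjusted p = 0.0499). The median log2 fold change of the 10 genes was −0.286 for 56Fe, −0.193 for 16O and −0.023 for 28Si, where that of all genes was 0.002, 0 and −0.008.

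Other genes of nitrogen handling gave calls at 1 month, where 1.18% of all genes passed for 56Fe, 1.6% for 16O and 0.244% for 28Si. Of 17 partners of the urea cycle tested (transporters, transaminases and the like), only Got1, the cytosolic aspartate transaminase, fell after 56Fe (log2 fold change −0.79, adjusted p = 0.0259), and none passed after 16O or 28Si. Of 30 genes of amino acid breakdown, Tat (tyrosine transaminase) and Kynu (kynureninase) fell after 56Fe, Tat and Cbs (the first enzyme of transsulfuration) fell after 16O, and none passed after 28Si. Tat had 251.4, 135.2 and 149.9 in 56Fe livers and 159.0, 225.3 and 206.0 in 16O livers, against 359.5, 378.8 and 534.4 in control livers. In 28Si livers Tat had 425.4, 272.7 and 365.2, which overlapped the controls. Of 15 other periportal genes, Mfsd2a, a lipid transporter, fell (−1.32) and Apoa4, an apolipoprotein, rose (1.06) after 56Fe. Of 20 pericentral genes tested, Cyp2a5, a cytochrome P450, rose after 56Fe (0.71) and after 16O (1.05), and no other passed. None of 15 regulators, among them Hnf4a, Nr3c1 and Gcgr, passed for any ion at 1 month.

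Genes of feeding and of the clock also moved at 1 month, beside 1.18%, 1.6% and 0.244% of all genes for 56Fe, 16O and 28Si. Of 10 lipogenic genes that rise with feeding, 5 fell after 56Fe, 4 after 16O and 2 after 28Si, with median log2 fold changes of −0.845, −0.736 and −0.478. Their summed level was 1151 to 2065 in 56Fe livers, 1233 to 1438 in 16O livers and 1735 to 1896 in 28Si livers, against 2432 to 2787 in control livers. Genes of fasting and of the glucocorticoid response went both ways: Tat fell after 56Fe (−1.26) and 16O (−1.09), while Fkbp5 (1.11) and Lpin1 (1.25) rose after 16O. Of 14 clock genes tested, 1 rose after 56Fe, 1 rose and 1 fell after 16O, and 1 rose and 5 fell after 28Si. Their part in the change of Sds was not tested. Markers of other liver cells gave no call: 0 of 10 Kupffer cell markers passed for any ion, with summed levels of 78.35 to 123.4 in 56Fe livers, 76.6 to 84.0 in 16O livers and 72.94 to 74.58 in 28Si livers, against 69.37 to 86.68 in control livers. None of the 10 was at 0 in any library.

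At the later times no member passed against control. At 2 months 0 of 10 passed for each ion, where 0% of genes tested passed for 56Fe, 0% for 16O and 0.0181% for 28Si. After 56Fe, Sds had 80.8, 93.86 and 87.69 against 53.6, 43.12 and 61.62 in control livers, a log2 fold change of 0.75 with an adjusted p of 0.104, the opposite side of control from 1 month. After 16O, 8 of the 10 genes were lower than control, with Otc at 102.4, 126.6 and 151.6 in 16O livers against 166.1, 180.6 and 149.7 in control livers (−0.38, adjusted p = 0.508). In none of the 8 other metabolic lists did a gene pass at 2 months. Unadjusted, 4 members were under 0.05 for 56Fe, 1 for 16O and 0 for 28Si.

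At 4 months 0 of 10 passed, where 0.541% of genes passed for 56Fe, 0% for 16O and 0.382% for 28Si. Hal had 72.07, 66.89 and 65.82 in 56Fe livers against 49.86, 63.88 and 44.26 in control livers (log2 fold change 0.39, adjusted p = 0.263), and Sds had 65.13, 51.68 and 40.32 against 85.83, 57.26 and 107 (−0.65, adjusted p = 0.305). Of the partners, Gpt2, a mitochondrial alanine transaminase, fell after 56Fe (−0.45). Genes of the fasting response went both ways after 56Fe: G6pc (1.43), Pdk4 (1.38) and Fgf21 (2.47) rose, and Lpin1 fell (−0.91). The clock genes Arntl (2.05) and Clock (0.76) also rose after 56Fe. After 28Si, Gnmt, which methylates glycine, rose (0.66), as did the lipogenic gene Fasn (0.88). Without control replicate 2 the difference of Hal after 56Fe passed (0.53, adjusted p = 0.0499).

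At 9 months 0 of 10 passed although 3.65% of genes passed for 56Fe, with 1.11% for 16O and 0.124% for 28Si. Otc had 167.2, 152.2 and 145.6 in 56Fe livers against 203.9, 202.1 and 172.6 in control livers (−0.30, adjusted p = 0.123). Cps1 had 1071, 1036 and 865.2 in 56Fe livers against 810.7, 908.0 and 661.7 in control livers (0.34, adjusted p = 0.207). Among the partners of the cycle Slc7a2, an arginine and ornithine transporter, rose (0.95) and Sirt5, a deacylase that acts on Cps1, fell (−0.49) after 56Fe. Cdh1, a periportal adhesion gene, rose after 56Fe (2.04) and after 16O (2.30), and Pck1, of gluconeogenesis, rose after 56Fe (0.94). Apoa4, of the same periportal list, fell after 56Fe (−1.12). Among fasting genes after 56Fe, Lpin1 rose (1.02) and Fgf21 fell (−2.19). In 28Si livers replicate 2 stood apart, with Cyp2f2 at 98.2 where the other 28Si livers had 249.3 and 320.7, and Cps1 at 647.7 where the others had 1235 and 1078.

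At 12 months 0 of 10 passed, where 0% of genes passed for 56Fe, 0.00878% for 16O and 0.0176% for 28Si. In 28Si livers 9 of the 10 genes were higher than control and 3 had an unadjusted p under 0.05. The largest of them was Hal, with 61.48, 78.8 and 59.78 in 28Si livers against 54.31, 40.25 and 43.45 in control livers (0.52, adjusted p = 0.570). Sds was scattered, with 133.2, 63.8 and 39 in 56Fe livers and 50.06, 204.6 and 54.99 in 16O livers, against 38.13, 77.76 and 50.74 in control livers. Its standard error reached 0.5846 for 16O, the largest of any member. Leaving out replicate 2 of 16O at this time still gave 0 of 10 for 16O, and leaving out the 4 livers highest in Kupffer cell markers gave 0 of 10 for 28Si at 9 months and for each ion at 12 months.

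The ions were also set against each other at each time, with an F test on the 3 ion effects in a fit of the 12 libraries of that time. At 1 month 2 of 10 genes differed between the ions, Hal and Asl, where 12.2% of genes tested differed. Hal, which opens the breakdown of histidine, had 57.98, 50.1 and 49.16 in 56Fe livers, 43.86, 41.48 and 48.93 in 16O livers and 79.57, 67.05 and 72.25 in 28Si livers, against 57.72, 55.04 and 61.19 in control livers. The 28Si livers lay above all others and the 16O livers below the controls. The widest difference between ions was 0.70 on the log2 scale (limma F test, adjusted p = 0.00194), and 28Si exceeded 56Fe and 16O in pairwise tests over all genes (56Fe minus 28Si −0.47, adjusted p = 0.0131, and 16O minus 28Si −0.70, adjusted p = 7.52e-04). Over all genes, 1081 of 11539 passed between 56Fe and 28Si, and 1592 between 16O and 28Si. Hal passed the F test in each of the 12 fits that left out 1 library. Against control, the 16O and 28Si differences were −0.37 and 0.32 and did not pass (adjusted p = 0.178 and 0.2996).

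Most of the Hal level was not assigned to its protein-coding transcript. The largest share, 49.885% of the gene's mean RPKM, was assigned to a transcript annotated for nonsense-mediated decay, and 32.31% to the coding one. In read pairs the coding transcript, which is longer, had more, with a median of 1800.5 per library against 1307.5 for the decay transcript. The coding transcript had 17.46, 14.15 and 15.65 in 56Fe livers, 11.56, 11.88 and 15.25 in 16O livers and 27.06, 22.31 and 21.54 in 28Si livers, against 18.69, 15.52 and 17.84 in control livers. With coding transcripts alone the difference between ions stayed past the threshold (adjusted p = 0.00271), and with the decay transcript alone it did not (0.0733). How reads shared by overlapping transcripts were divided is not given in the sources used here, so the split between these transcripts is uncertain.

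Asl, the last step before arginine, had 193.9, 160.5 and 148.2 in 56Fe livers, 225.1, 219.2 and 198.0 in 16O livers and 160.4, 156.5 and 167.6 in 28Si livers, against 200.2, 218.0 and 235.4 in control livers. The 16O livers overlapped the controls, and the 56Fe livers and the 28Si livers lay below them. The widest difference was 0.41 (adjusted p = 0.0441), between 16O and 28Si (adjusted p = 0.0273). The Asl call was near the threshold: it was lost on RPKM as deposited (0.426) and in 9 of the 12 fits that left out 1 library. Of the other members only Cps1 passed in a pairwise test, lower in 56Fe than in 28Si livers by 0.46 (adjusted p = 0.0476), with an F test over the ions that did not pass (0.0837). That pairwise test called 1081 of 11539 genes, and the test of 16O against 28Si called 1592. With coding transcripts alone Gls2 also differed between the ions, by 0.67 at the widest (adjusted p = 0.00152), and fell after 28Si (log2 fold change −0.78, adjusted p = 0.0208).

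Other genes of nitrogen handling differed between the ions at 1 month. Amdhd1, a later enzyme of the histidine pathway named here after its values were seen, had 35.99, 36.23 and 38.07 in 56Fe livers, 28.28, 27.86 and 30.19 in 16O livers and 55.7, 49.28 and 47.24 in 28Si livers, against 34.47, 32.04 and 40.61 in control livers. This is the order seen for Hal, with 28Si highest and 16O lowest. Uroc1 and Ftcd, other enzymes of the histidine pathway in the same list, did not pass between the ions. In all, 12 of 30 genes of amino acid breakdown passed, where 12.2% of all genes did, among them Gldc and Amt of glycine cleavage with widest differences of 1.10 and 0.85, Tat with 1.01 and Cbs with 0.90. Of 17 urea cycle partners 5 passed, beside the same 12.2%, among them Slc25a15, the mitochondrial ornithine carrier, with 42.61, 37.15 and 36.47 in 56Fe livers, 37.46, 38.43 and 42.03 in 16O livers and 73.28, 57.48 and 56.07 in 28Si livers, against 47.96, 45.92 and 57.7 in control livers. Cebpa and Cebpb, regulators of liver metabolism, also passed (0.72 and 0.86).

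Clock genes separated the same livers. Of 14 tested, 13 differed between the ions at 1 month, beside the 12.2% of all genes. Dbp, an output gene of the clock, had 89.09, 93.44 and 80.71 in 56Fe livers, 82.45, 86.89 and 81.15 in 16O livers and 15.94, 18.01 and 20.59 in 28Si livers, against 55.47, 63.4 and 52.56 in control livers. Arntl, a core clock activator, had 3.984, 3.041 and 3.503 in 28Si livers, against 1.001, 0.818 and 0.7683 in control livers. The summed level of the clock list was 260.1 to 306.3 in 56Fe livers, 254.7 to 295.8 in 16O livers and 133.5 to 146.3 in 28Si livers, against 212.3 to 264.7 in control livers. The part of the clock or of the hour of collection in the differences of Hal and Asl was not tested, and since collection hours are not given, ion and hour cannot be told apart here.

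**Figure D4:**
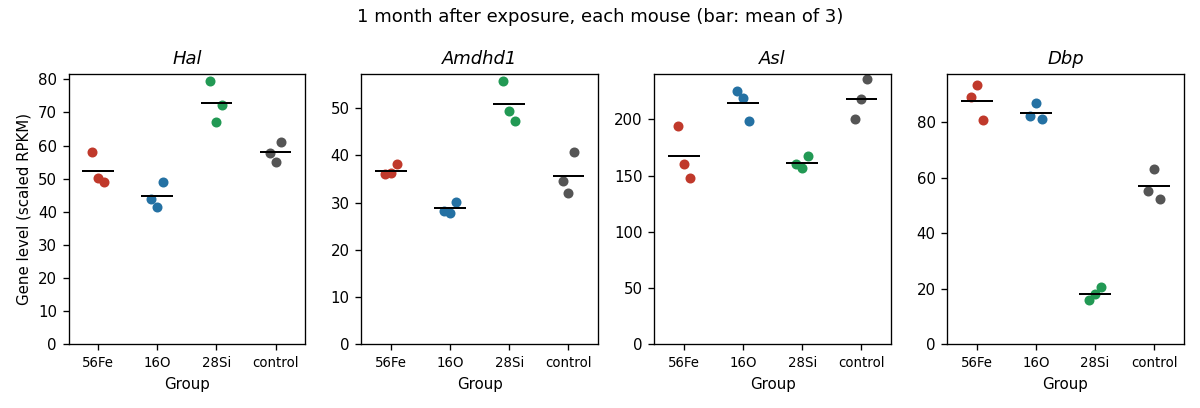
Hal, Amdhd1, Asl and the clock gene Dbp in each mouse at 1 month (scaled RPKM, 3 mice per group, bar at the mean, each panel with its own axis from 0). Hal is highest in 28Si livers (67.05 to 79.57) and lowest in 16O livers (41.48 to 48.93), while Dbp is lowest in 28Si livers (15.94 to 20.59).

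At the other times no member differed between the ions. The counts were 0 of 10 at 2, 4, 9 and 12 months, where 1.16%, 0.671%, 0.4% and 0% of genes differed. The nearest were Asl at 4 months, with 156.9, 150.2 and 135.7 in 56Fe livers, 196.0, 225.3 and 191.9 in 16O livers and 150.4, 159.3 and 179.0 in 28Si livers, against 160.1, 174.1 and 166.2 in control livers (adjusted p = 0.0805), and Hal at 2 months (0.0986). At 2 months the count rested on 1 library: without 16O replicate 3, 6 of 10 passed, namely Otc (widest difference 0.63, adjusted p = 0.00948), Hal, Cyp2f2, Cps1, Ass1 and Arg1. The 1.16% of all genes belongs to the fit with that library. The share without it is not given here, so this count is not read as particular to the members. Among other genes, Oat, Tat and Etnppl differed between ions at 2 months, and Gpt2 at 4 months.

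More members differed between times than between ions. Across the 5 times, 6 of 10 genes changed in 56Fe livers (Cps1, Asl, Nags, Hal, Gls2 and Cyp2f2), 2 in 16O livers (Nags and Cyp2f2), 4 in 28Si livers (Nags, Hal, Gls2 and Cyp2f2) and 5 in control livers (Asl, Hal, Gls2, Cyp2f2 and Sds). These counts stand beside 55% of all genes in 56Fe, 45.6% in 16O, 55.1% in 28Si and 58.1% in control livers, so the members' share was near or below that of the table as a whole. Without replicate 2 of 16O at 12 months, 5 of 10 passed in 16O livers, since Cps1 (adjusted p = 0.017), Gls2 (0.017) and Asl (0.0408) were added. The 45.6% of all genes belongs to the fit with that liver, and the share without it is not given here. With all libraries kept, Cyp2f2 was the only member that changed with time in all 4 groups, and without that liver Gls2 did so too (for Cyp2f2, adjusted p = 3.38e-05 in 56Fe, 0.0118 in 16O, 7.39e-04 in 28Si and 1.98e-04 in control livers).

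The times were also tested in 2 blocks, the later 3 and the first 2. Within 4, 9 and 12 months alone, 0 of 10 genes changed in any group, where 0.00862% of genes changed in 56Fe, 0% in 16O, 1.07% in 28Si and 0.638% in control livers. Within 1 and 2 months alone, 2 of 10 changed in 56Fe livers, 0 in 16O, 0 in 28Si and 1 in control livers, where 0.986%, 0.018%, 2.13% and 0.858% of genes did. The 2 genes in 56Fe livers were Hal and Sds. Hal had 73.82, 69.66 and 74.34 at 2 months, against 57.98, 50.1 and 49.16 at 1 month (adjusted p = 0.0308), and Sds had 80.8, 93.86 and 87.69 at 2 months, against 61.49, 45.67 and 43.38 at 1 month (adjusted p = 0.0179). In control livers the 1 gene was again Sds, which ran the other way and was lower at 2 months than at 1 by 0.95 on the log2 scale (adjusted p = 0.0163). The share of reads in annotated transcripts followed the same divide, with 56.01% to 88.45% per library at the later 3 times and 43.42% to 66.4% at the first 2. Time since exposure, age and any difference in how the early and late libraries were made cannot be told apart.

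Cyp2f2, the P450 that marks periportal hepatocytes in mice, was lower at 4 to 12 months than at 1 and 2 months in every group. In 56Fe livers its lowest, median and highest values were 199.2, 339.2 and 417.7 late and 527.2, 652.4 and 762.1 early. In 16O livers they were 111.3, 292.4 and 439.0 late and 448.1, 572.8 and 819.6 early, and in 28Si livers 98.2, 299.0 and 320.7 late and 518.0, 585.1 and 624.0 early. In control livers they were 225.8, 312.0 and 396.4 late and 404.7, 557.3 and 671.8 early. Late and early livers did not overlap in any group, and the highest late value, 439.0, was below the lowest early value of every group but control. The share of all genes that separated late from early livers was not counted, and 45.6% to 58.1% of all genes differed between times. The log2 ratio of the late to the early median was −0.943 in 56Fe, −0.970 in 16O, −0.969 in 28Si and −0.837 in control livers. On RPKM as deposited the ratio was smaller, −0.489, −0.377, −0.483 and −0.367, and late and early livers overlapped in all groups but 28Si. The scaling factors themselves differed between late and early libraries by 0.5 on the log2 scale.

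Part of the early level of Cyp2f2 came from a short non-coding transcript of 718 bases that starts inside the gene. In 4 to 12 month livers it had 0 to 15.54 in 56Fe, 0 to 8.895 in 16O, 0.287 to 13.5 in 28Si and 0.1866 to 2.845 in control livers. In 1 and 2 month livers it had 128.8 to 219.1 in 56Fe, 98.7 to 169.1 in 16O, 25.63 to 108.7 in 28Si and 56.47 to 140.4 in control livers. The late and early ranges of this transcript did not overlap in any group. At 1 month it was lowest in 28Si livers, with 25.63, 57.07 and 61.04, against 83.74, 98.99 and 136.4 in control livers. The coding transcripts made up a median of 99.33% of the gene at 4 to 12 months and 78.28% at 1 and 2 months. The main coding transcript, over all groups, had medians of 421.0, 488.0, 317.4, 295.6 and 279.3 at 1, 2, 4, 9 and 12 months, so it too was lower late. Whether short and main transcript were told apart by reads of their own was not tested. Non-coding transcripts of other members also differed between early and late livers, most of them lower late and some higher. That of Arg1 with 702 bases had medians of 13.02 and 6.712 at 1 and 2 months, against 2.597, 1.869 and 2.876 at 4, 9 and 12 months. That of Hal with 851 bases ran the other way, with 3.539 and 5.435 against 12.03, 12.05 and 9.557.

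**Figure D5:**
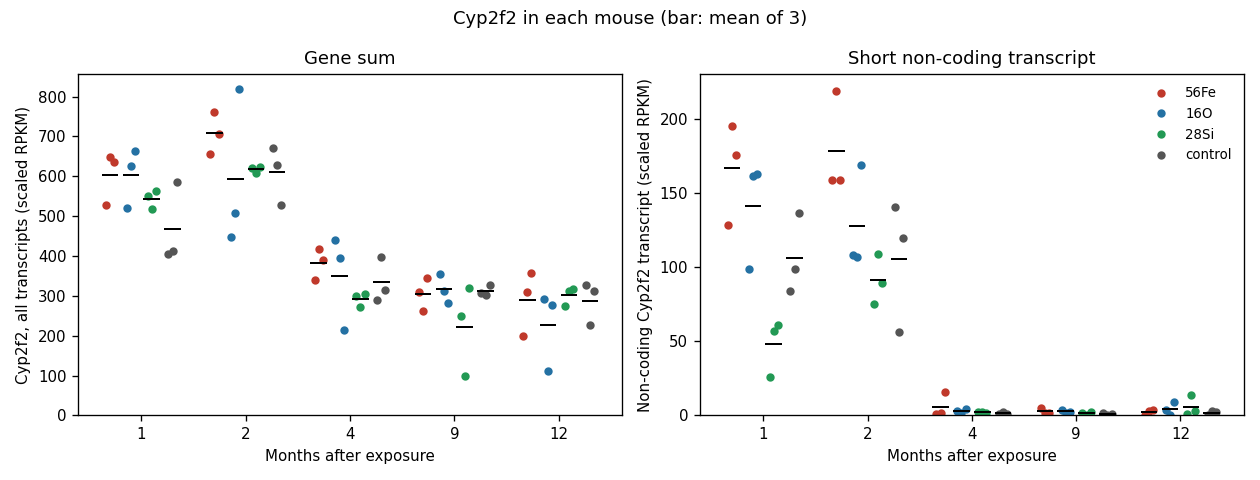
Cyp2f2 in each mouse (scaled RPKM) as the sum over its transcripts (left) and for its short non-coding transcript alone (right), at 5 times with 3 mice per group and a bar at the mean. From 4 months on the sum is 439.0 or less and at 1 and 2 months 404.7 or more, and the short transcript is 15.54 or less late and 25.63 or more early.

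The other members differed less between late and early livers. Gls2 was higher late in all groups, with log2 ratios of medians of 0.468 in 56Fe, 0.505 in 16O, 0.644 in 28Si and 0.375 in control livers, and 0.894 to 1.225 on RPKM as deposited. Nags was also higher late, by 0.189 in 56Fe, 0.464 in 16O, 0.330 in 28Si and 0.150 in control livers, and its test in control livers did not pass (adjusted p = 0.107). Cps1 had ratios of 0.413, 0.524, 0.193 and 0.297 in 56Fe, 16O, 28Si and control livers, with a change past the threshold in 56Fe livers (adjusted p = 0.00629) and, without replicate 2 of 16O at 12 months, in 16O livers. Hal and Asl depended on the scale: in control livers Hal was lower late by 0.245 and Asl by 0.262 as scaled, but higher late by 0.172 and 0.257 as deposited. No direction over time is therefore given for Hal and Asl.

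Whether an ion's effect differed between times was tested as an interaction over all 60 libraries. It passed for 0 of 10 genes for each ion, where 0.966% of genes passed for 56Fe, 0.864% for 16O and 0.0785% for 28Si. Sds was nearest, with effects of 56Fe that spanned 1.75 on the log2 scale between 1 and 2 months (adjusted p = 0.0864), and adjusted p of 0.370 for 16O and 0.498 for 28Si. Unadjusted, 1 member was under 0.05 for 56Fe, 0 for 16O and 1 for 28Si. The result for Sds and 56Fe rested on single libraries of 12 months. Without replicate 2 of 16O, the library that stood apart, it passed (adjusted p = 0.00986), and likewise without replicate 3 of 56Fe (0.0389). It also passed without the 4 livers highest in Kupffer cell markers (0.00153).

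Across the 60 livers the members did not move as 1 block. Of 45 pairs, 36 had a positive Spearman correlation, with a median of 0.252 and a range of −0.532 to 0.695. On deviations from the mean of each group and time, 39 were positive with a median of 0.451. The closest pairs there were Cps1 with Ass1 (0.815), Otc with Cyp2f2 (0.769) and Hal with Gls2 (0.762), and Sds stood against Cyp2f2 (−0.427) and Otc (−0.318). These are descriptions over mice that share depth, scaling and 1 library that stands apart.

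The genes most like each member over the 60 livers, by Spearman correlation among 10006 genes, differed from member to member. For Cps1 they were Lap3 (0.822), Hgd (0.809) and Cth (0.798), and for Otc Ugt2b36 (0.855), Mdh1 (0.820) and Sult2a8 (0.817). Ass1 and Asl named each other (0.695), beside Nqo2 for Ass1 (0.767) and Etnppl for Asl (0.656). Arg1 was closest to Prdx2 (0.729), Nags to Ppm1f (0.822) and Hal to Sgk2 (0.748). Gls2 was closest to Gstk1 (0.891) and Cyp2f2 to mt-Co3 (0.892). Sds had the lowest best match, Slc25a51 (0.607), followed by Got1 (0.577) and Tat (0.506).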

How the data were processed

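Total liver RNA of 60 mice was sequenced in paired reads of 50 bases after ribosomal RNA removal. The authors trimmed 14 bases from the 5′ ends, mapped to GRCm38 (annotation 97) in CLC Genomics Workbench with length and similarity fractions of 95%, and deposited RPKM for 123811 transcripts in each library. The 20 columns of group means deposited beside them were left out, and each per-sample column matched a labelled mouse.

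RPKM were summed over the transcripts of a gene (38204 genes). Read counts behind them came out whole within 0.02 read for 99.76% to 99.96% of low values per library, which gave the depth. Gene values were put on 1 scale with a trimmed mean of log ratios, without weights (30% of ratios and 5% of levels trimmed), kept where 3 or more libraries in the fit reached 0.5 RPKM, and tested as log2(RPKM + 0.1) with limma 3.58.1 in R 4.3.3, with Benjamini-Hochberg adjustment over all genes that passed the filter and a call at 0.05. Fold changes on this scale understate those of low genes. Levels printed per mouse were scaled over all 60 libraries, and fold changes come from each comparison's own libraries. The 3 ions were each compared with control at 5 times, with each other at each time, between times in each group, and for an interaction of ion and time. The main test takes limma on normalized values because the files hold no counts. Scripts were tested on simulated data.

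The rule for named genes was all 10 members, up to 4 genes past the threshold with the widest change from each list and comparison, and for each member the 3 genes with the highest rank correlation. Members and gene lists were chosen with earlier results of these data known. Alternatives were other pseudocounts and filters, RPKM as deposited, the top transcript, other sets of libraries, the replicate number as a block, and each library left out. Protein-coding transcripts only, 4 to 12 months only, 1 and 2 months only and leaving out the 4 libraries highest in Kupffer cell markers were chosen after seeing the data. Promoters are from RefSeq (GRCm38.p6).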

Additional observations from a re-analysis of the deposited data

How the results depend on the processing

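Counts here are of the 10 genes past the threshold, without the share of all genes under each setting. With all 60 libraries in the fit, the count at 1 month was 0 for 56Fe, 0 for 16O and 0 for 28Si. On RPKM as deposited it was 0 for 16O and 0 for 28Si at 1 month, 1 between the ions at 1 month, and 10 and 6 between times in 56Fe and 16O livers. With the replicate number as a block it was 0 for 28Si at 1 month, where Sds had an adjusted p of 0.146, 1 between the ions at 1 month, and 1 between times in 16O livers. The labels do not say what the replicate numbers share, same-numbered libraries correlated above 0.1 in all 3 pairs only for 16O at 12 months (0.3716, 0.5217 and 0.2543), and of the other counts the block moved only that between times in 28Si livers, which was 3, against 4 without it, as Hal was lost (adjusted p = 0.0599). Without the filter it was 1 between the ions at 1 month, 2 between times in 28Si and 3 in control livers, and with a filter at 1 RPKM it was 1 between times in 16O livers. Protein-coding transcripts alone gave 2 for 28Si at 1 month, and 4 and 1 between the ions at 1 and 2 months. Within 4, 9 and 12 months the counts between times were 0 in every group, and within 1 and 2 months 2 in 56Fe, 0 in 16O, 0 in 28Si and 1 in control livers. Leaving out 1 library gave 0 to 2 for 56Fe, 0 to 1 for 16O and 0 to 1 for 28Si at 1 month, and 0 to 1 for 56Fe at 4 months. Between the ions it gave 1 to 2 at 1 month and 0 to 6 at 2 months, and between times 5 to 8 in 56Fe, 1 to 5 in 16O, 2 to 5 in 28Si and 4 to 6 in control livers. For the interaction of 56Fe with time it gave 0 to 1. The cause of these moves was not tested. Without the 4 libraries highest in Kupffer cell markers, between times 8 passed in 56Fe, 5 in 16O, 5 in 28Si and 4 in control livers (without Hal, adjusted p = 0.0623), and 1 for the interaction of 56Fe with time. No called fold change of an ion over control changed sign under any setting. The late to early ratios of medians, which were not tested, changed sign on RPKM as deposited for Hal in 56Fe, 28Si and control livers, Asl in 56Fe, 16O and control livers, Ass1 in 16O, 28Si and control livers, Otc in 28Si livers and Sds in 56Fe and control livers. Upper quartile scaling, median of ratios scaling and the other pseudocounts moved no count by more than 1.5 times.

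Counts over all genes depended more on the settings: for 28Si at 1 month 27 genes passed, against 102 with all 60 libraries and 4 with the block, and for 56Fe at 9 months 414 passed, against 4 with the top transcript alone. Nags had the fewest reads of the members, with at least 374 read pairs per library. A standard error above 0.5 occurred only for Sds after 16O at 12 months (0.5846), where the 3 livers had 50.06, 204.6 and 54.99. The part of depth and of the number of mice in the calls was not tested.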
